A study of Arabidopsis with 8 samples.

Results

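Described here are 10 Arabidopsis thaliana genes of phosphate uptake, export and starvation signalling, chosen by gene identifier from the 25404 genes listed in at least 1 library. They were the uptake transporters PHT1;1, PHT1;2 and PHT1;4, the exporter PHO1, the regulators PHR1, SPX1, SPX2 and SPX3, the non-coding RNA IPS1 and the ubiquitin-conjugating enzyme PHO2. RNA sequencing was done on roots and shoots of 5-day-old seedlings in 4 groups of 2 libraries. The groups were OE-SAUR41 root, Col-0 root, OE-SAUR41 shoot and Col-0 shoot. OE-SAUR41 is a line that overexpresses SAUR41, a gene of the SAUR (small auxin up RNA) family, and Col-0 is the wild type. The labels did not give the promoter of the transgene, the number of lines, the phosphate supply of the medium or whether replicate libraries were grown separately. The p-values therefore cover the spread between the libraries only, and that spread may be technical.

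Plants take up inorganic phosphate through proton-coupled PHT1 transporters in the plasma membrane and move it from root to shoot through the xylem, which PHO1 loads. When phosphate is short, the transcription factor PHR1 switches on starvation genes. SPX proteins bind PHR1 and hold it back while phosphate is ample. PHO2 leads PHO1 and PHT1 transporters to degradation, the microRNA miR399 lowers PHO2, and IPS1 captures miR399 as a decoy.

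Expression was given as FPKM, fragments scaled to transcript length and library size, a level that can be compared between genes. SAUR41 itself averaged 6333 FPKM in OE-SAUR41 roots against 6.05 in Col-0 roots. In shoots it averaged 10461 FPKM in OE-SAUR41 against 6.61 in Col-0. The 5 shoot markers summed to between 61.9 and 101 FPKM in the root libraries and to between 19380 and 37758 FPKM in the shoot libraries. The 5 root markers summed to between 5754 and 6664 FPKM in the root libraries and to between 507 and 828 FPKM in the shoot libraries, so that both tissues matched their labels. Col-0 shoot 1 stood apart: 29.1% of tested genes differed at least 2-fold between it and Col-0 shoot 2, on log2(FPKM + 1), against 1.27% to 2.04% between the libraries of the other groups. It also had the lowest shoot marker sum of the 4 shoot libraries. Most of that sum was RBCS1A, with 11901 FPKM in Col-0 shoot 1. RBCS1A, LHCB2.1, LHCA1 and PSAD-1 were each lowest there. GLK1 was not, with 98.6 FPKM there against 78.6 and 90.3 FPKM in OE-SAUR41 shoots. Many of the results that rest on Col-0 shoot 1 are also given without it, but not all. In these tissue samples, fewer cells of a type and less RNA per cell cannot be told apart.

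PHT1;1 (AT5G43350, chromosome 5, 17399788 to 17401949 in TAIR10), a main root uptake transporter, was the most abundant of the 10 genes in roots. It had 337 and 461 FPKM in OE-SAUR41 roots, against 12.2 and 15.3 FPKM in OE-SAUR41 shoots. In Col-0 it had 450.0 and 459 FPKM in roots, against 8.93 and 5.98 FPKM in shoots. Every root library lay far above every shoot library, and the gene ranked between 126 and 227 from the top among the genes listed in the root libraries.

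PHT1;2 (AT5G43370, chromosome 5, 17415771 to 17417798), a close relative on the same chromosome, followed the same order at a much lower level. OE-SAUR41 roots had 25.7 and 36.6 FPKM, against 1.10 and 1.33 FPKM in OE-SAUR41 shoots. Col-0 roots had 40.8 and 40.2 FPKM, against 0.461 and 0.366 FPKM in Col-0 shoots. Its level was between 7.62% and 9.07% of that of PHT1;1 in the root libraries, 9.06% and 8.70% in OE-SAUR41 shoots, and 5.16% and 6.12% in Col-0 shoots. The transcripts of the 2 genes are much alike, and the sources used here do not say how reads matching both were counted, so the split between them is uncertain.

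PHT1;4 (AT2G38940, chromosome 2, 16257227 to 16260225), an uptake transporter of root and aerial tissue, differed less between tissues. It had 43.7 and 51.4 FPKM in OE-SAUR41 roots, against 10.4 and 11.7 FPKM in OE-SAUR41 shoots. Col-0 roots gave 40.4 and 41.5 FPKM, against 15.0 and 13.1 FPKM in Col-0 shoots. In OE-SAUR41 shoots it lay below PHT1;1 in both libraries, whereas in Col-0 shoots it lay above it in both.

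**Figure D1:**
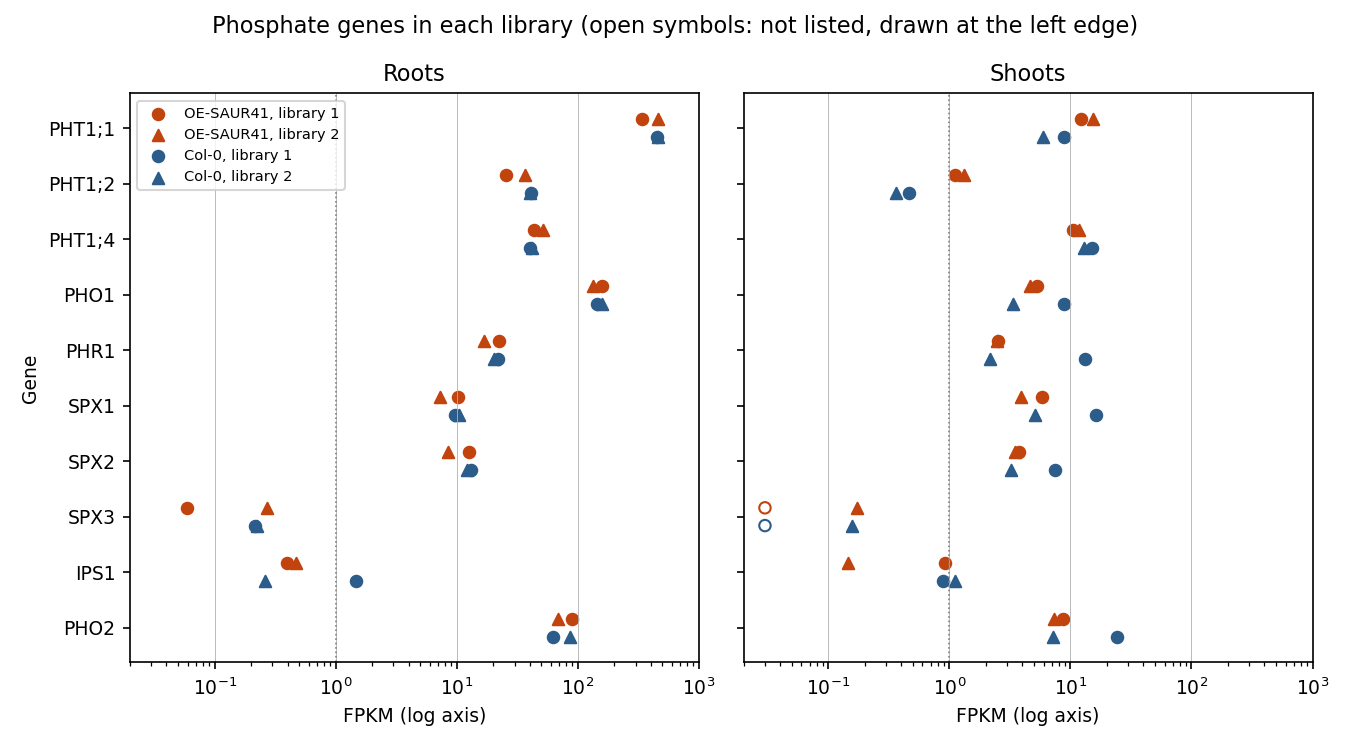
FPKM of the 10 genes on a log axis in each root library (left) and shoot library (right), OE-SAUR41 drawn above Col-0 for each gene, circles for library 1 and triangles for library 2. PHT1;1 lies between 337 and 461 FPKM in roots and between 5.98 and 15.3 FPKM in shoots. Col-0 shoot 1 stands to the right of the other shoot libraries for PHR1, SPX1, SPX2, PHO1 and PHO2, and by less for PHT1;4.

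PHO1 (AT3G23430, chromosome 3, 8387507 to 8393296), which loads phosphate into the root xylem, was the second most abundant of the genes in roots. It had 157 and 132 FPKM in OE-SAUR41 roots, against 5.34 and 4.63 FPKM in OE-SAUR41 shoots. Col-0 roots gave 143 and 159 FPKM, against 8.87 and 3.35 FPKM in Col-0 shoots. The genotypes overlapped in both tissues.

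PHO2 (AT2G33770, listed as UBC24, chromosome 2, 14277557 to 14283040) came next in roots, with 88.9 and 69.2 FPKM in OE-SAUR41 roots against 8.63 and 7.30 FPKM in OE-SAUR41 shoots. Col-0 roots had 62.0 and 86.5 FPKM, against 24.1 and 7.19 FPKM in Col-0 shoots. Every root library lay above every shoot library, and among shoots Col-0 shoot 1 was the highest.

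PHR1 (AT4G28610, chromosome 4, 14132855 to 14135259), the MYB-type regulator of starvation genes, had 22.3 and 16.8 FPKM in OE-SAUR41 roots, against 2.54 and 2.46 FPKM in OE-SAUR41 shoots. In Col-0 it had 21.8 and 20.4 FPKM in roots, against 13.1 and 2.16 FPKM in shoots. All 4 root libraries lay close together, and 1 of the 4 shoot libraries, Col-0 shoot 1, lay near them. In RefSeq's annotation of TAIR10.1 the span of PHR1 overlaps 1 other gene, so its value may hold reads of that gene.

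SPX1 (AT5G20150, chromosome 5, 6802371 to 6803625) and SPX2 (AT2G26660, chromosome 2, 11338931 to 11340950), the sensors that restrain PHR1, were lower and differed less between tissues. SPX1 had 10.3 and 7.30 FPKM in OE-SAUR41 roots against 5.84 and 3.88 FPKM in OE-SAUR41 shoots, and 9.73 and 10.4 FPKM in Col-0 roots against 16.4 and 5.10 FPKM in Col-0 shoots. SPX2 had 12.6 and 8.40 FPKM in OE-SAUR41 roots against 3.77 and 3.51 FPKM in OE-SAUR41 shoots, and 13.2 and 12.1 FPKM in Col-0 roots against 7.45 and 3.25 FPKM in Col-0 shoots. For SPX2 every root library exceeded every shoot library, while for SPX1 the highest of the 8 values was that of Col-0 shoot 1.

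SPX3 (AT2G45130, chromosome 2, 18606409 to 18607853) and IPS1 (AT3G09922, chromosome 3, 3050988 to 3051530), both known for strong induction when phosphate is short, were close to the limit of detection. SPX3 had 0.0594 and 0.270 FPKM in OE-SAUR41 roots, against 0.217 and 0.225 FPKM in Col-0 roots. It was not listed in library 1 of either shoot group and had 0.172 FPKM in OE-SAUR41 shoot 2 and 0.156 FPKM in Col-0 shoot 2. IPS1 had 0.396 and 0.466 FPKM in OE-SAUR41 roots, against 1.48 and 0.258 in Col-0 roots. In OE-SAUR41 shoots it had 0.921 and 0.144 FPKM, against 0.886 and 1.11 in Col-0 shoots. At such levels a few reads decide the value, and no order of the groups can be read from either gene.

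The order of the genes by mean level was the same in both genotypes in roots. In OE-SAUR41 roots it ran PHT1;1, PHO1, PHO2, PHT1;4, PHT1;2, PHR1, SPX2, SPX1, IPS1 and SPX3, and the libraries of neighbours overlapped only for SPX2 and SPX1. Col-0 roots gave the same order, with an overlap only between PHT1;4 and PHT1;2. In OE-SAUR41 shoots the order was PHT1;1, PHT1;4, PHO2, PHO1, SPX1, SPX2, PHR1, PHT1;2, IPS1 and SPX3, with overlaps between PHO1 and SPX1 and between IPS1 and SPX3. In Col-0 shoots PHO2 led by its mean, but the 7 most abundant genes overlapped from neighbour to neighbour, so their order was not resolved.

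The tissue difference was tested with limma on log2(FPKM + 1) over the 19863 genes that reached 1 FPKM in 2 or more libraries. Calls are those with an adjusted p (Benjamini-Hochberg) under 0.05. Of the 10 genes 9 were tested, and SPX3 was too low. IPS1 passed only through Col-0 root 1 (1.48 FPKM) and Col-0 shoot 2 (1.11 FPKM). The filter thus favoured lower OE-SAUR41 values for IPS1, and no genotype difference is read from it. In OE-SAUR41, 7 of the 9 were called and all 7 were higher in roots, where 77.8% of all tested genes were called and 66.0% were called higher and 11.8% lower in roots. In Col-0 the count was also 7 of 9, against 65.9% of all tested genes called, 52.7% higher and 13.2% lower in roots. Counts of that size are near the background. The median log2 difference, root over shoot, was 2.54 over the 9 genes in OE-SAUR41 against 1.22 over all genes, and 1.73 in Col-0 against 0.91 over all genes.

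On log2(FPKM + 1) the largest tissue difference of the 9 was that of PHT1;1, a log2 fold change of 4.75 ± 0.24 (SE) in OE-SAUR41 (adjusted p by limma 4.86e-06) and 5.77 ± 0.24 in Col-0 (adjusted p by limma 1.94e-06). This was the 202nd largest rise of all tested genes in OE-SAUR41 and the 94th in Col-0. PHO1 followed in OE-SAUR41 with 4.60 ± 0.35 and had 4.54 ± 0.35 in Col-0, and PHT1;2 had 3.84 ± 0.27 in OE-SAUR41 and 4.88 ± 0.27 in Col-0. PHO2 had 3.15 ± 0.47 in OE-SAUR41 and 2.37 ± 0.47 in Col-0. These 4 genes were called higher in roots under all 16 alternative settings run for OE-SAUR41 and all 17 for Col-0. Without Col-0 shoot 1 the Col-0 values were 6.03 for PHT1;1, 5.13 for PHO1, 4.93 for PHT1;2 and 3.18 for PHO2. The order of the first 3 depended on the settings: with pseudocount 0.1 PHT1;2 led in Col-0 with 6.31, against 5.94 for PHT1;1, and in OE-SAUR41 PHT1;1 and PHO1 had 4.84 and 4.83.

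The other calls depended more on the settings. PHT1;4 was higher in roots by 2.01 ± 0.19 in OE-SAUR41 and by 1.49 ± 0.19 in Col-0, but did not pass the threshold with TMM scaling (0.62 and 0.48), which sets most genes level between libraries. PHR1 had 2.54 ± 0.61 in OE-SAUR41, called under all 16 alternatives, and 1.73 ± 0.61 in Col-0, where the call held under only 7 of 17 alternatives, with 0.65 without Col-0 shoot 2 and 2.81 when Col-0 shoot 1 was left out. SPX2 had 1.28 ± 0.37 in OE-SAUR41 and 1.19 ± 0.37 in Col-0, close to the median of all genes, and lost its call with TMM scaling (0.035 and 0.27). With quantile normalization it had 0.016 in OE-SAUR41. Its call held under 11 of 16 alternatives in OE-SAUR41 and 12 of 17 in Col-0. TMM scaling lowered the median of all genes to 0.12 in OE-SAUR41 and 0.09 in Col-0, and with it the calls over all genes were 5583 higher and 5121 lower in OE-SAUR41, against 13100 and 2352 without it. For Col-0 the calls were 4032 higher and 4337 lower with TMM scaling, against 10470 and 2624 without it.

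SPX1 and IPS1 did not pass the test in either genotype, although SPX1 was called higher in OE-SAUR41 roots under 3 of 16 alternatives (with either Col-0 shoot library left out, and with the OE-SAUR41 libraries alone). SPX1 had a log2 difference of 0.75 ± 0.48 in OE-SAUR41 (adjusted p by limma 0.184) and 0.10 ± 0.48 in Col-0 (adjusted p by limma 0.857), below the median of all genes in both, and with TMM scaling the values were -0.52 and -0.82. Without Col-0 shoot 1 it was called higher in Col-0 roots, with 0.85 (adjusted p by limma 0.0197, up to 0.942 over the alternatives). IPS1 had -0.05 ± 0.36 in OE-SAUR41 and -0.17 ± 0.36 in Col-0. The 95% interval for IPS1 ran from -0.89 to 0.78 in OE-SAUR41 and from -1.01 to 0.66 in Col-0. A tissue difference within these limits was not excluded, and this scale understates the change of so low a gene.

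**Figure D2:**
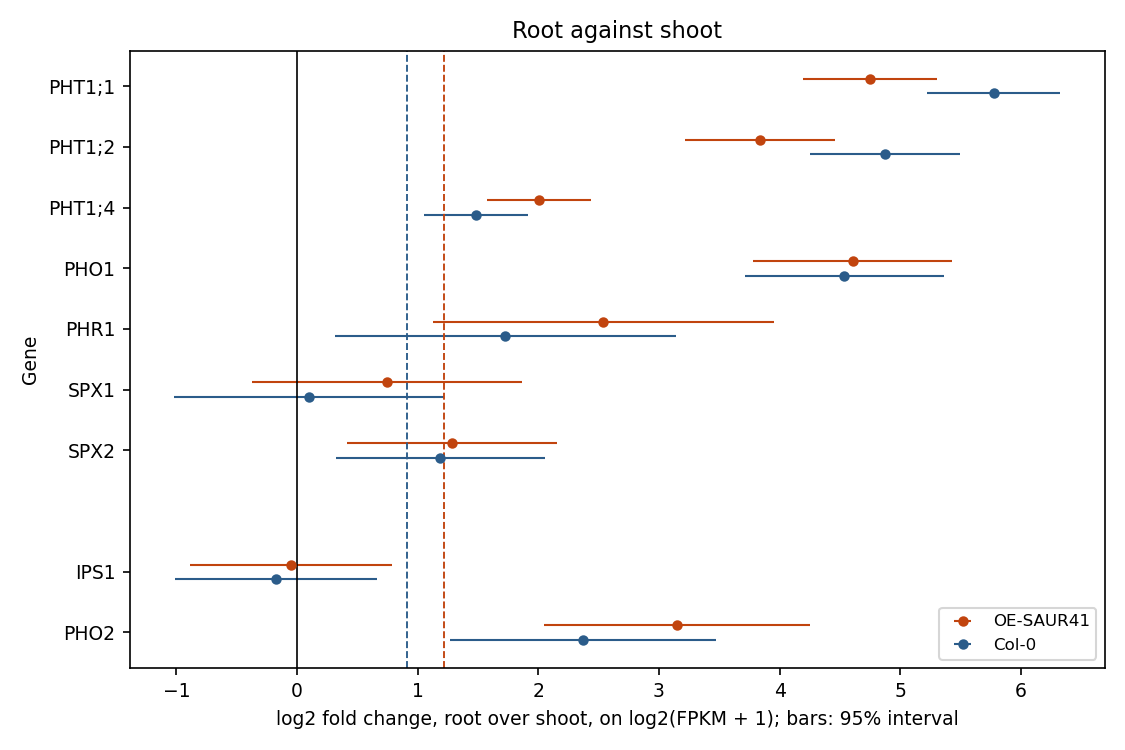
Log2 fold change, root over shoot, on log2(FPKM + 1) for the 9 tested genes, with 95% intervals, OE-SAUR41 above Col-0 for each gene. Dashed lines mark the median of all tested genes, 1.22 in OE-SAUR41 and 0.91 in Col-0. PHT1;1, PHT1;2, PHO1 and PHO2 lie right of both dashed lines, whereas SPX1 and IPS1 have intervals that cross 0.

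None of the 9 genes was called between OE-SAUR41 and Col-0 roots, where limma called 0.00503% of all tested genes, SAUR41 alone, and gave 340 genes an unadjusted p under 0.05. The 9 genes had a median log2 fold change of -0.19, with 2 positive and 7 negative, against -0.03 over all genes. Among the negative ones was IPS1, which passed the filter only through Col-0 libraries. PHT1;1 averaged 399 ± 87.9 FPKM in OE-SAUR41 roots, against 454 ± 6.37 in Col-0 roots (SD, n = 2 each). Its log2 fold change was -0.21 with a 95% interval of -0.76 to 0.35. The 2 OE-SAUR41 libraries differed more from each other than the group means did.

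Between root groups PHT1;2 and PHT1;4 alone did not overlap. PHT1;2 was lower in both OE-SAUR41 libraries, at a mean of 31.1 ± 7.69 FPKM in OE-SAUR41 roots, against 40.5 ± 0.455 in Col-0 roots (log2 fold change -0.39 ± 0.27 SE). PHT1;4 was higher in both, at 47.6 ± 5.45 FPKM in OE-SAUR41 roots, against 40.9 ± 0.837 in Col-0 roots (0.21 ± 0.19 SE). Such a separation in the lower direction was found for 19.6% of all tested genes and in the higher direction for 11.5%, so 1 of 9 each way is near the background. The values for PHO1, PHO2, PHR1, SPX1, SPX2 and IPS1 ranged from -0.30 for IPS1 to 0.10 for PHO2, each less than its standard error.

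In shoots, too, none of the 9 genes was called, where limma called 0.0201% of all tested genes, 4 in number, and gave 2790 genes an unadjusted p under 0.05. The median log2 fold change was -0.37 over the 9 genes and -0.32 over all genes, with 2 of the 9 positive and 7 negative. Here too the negative ones included IPS1, which the filter kept only through Col-0 libraries. TMM scaling moved the median of all genes to -0.01, and PHT1;4 (0.10), PHO1 (0.28) and SPX2 (0.0089) then turned positive. The 2 genes positive with and without TMM scaling were root uptake transporters. PHT1;1 averaged 13.7 ± 2.18 FPKM in OE-SAUR41 shoots, against 7.45 ± 2.09 in Col-0 shoots (SD, n = 2 each), 1.84 times as much by the means. Its log2 fold change was 0.82 with a 95% interval of 0.26 to 1.37, an unadjusted limma p of 0.00976 and an adjusted p of 0.269. PHT1;2 averaged 1.22 ± 0.159 FPKM in OE-SAUR41 shoots, against 0.413 ± 0.0673 in Col-0 shoots. Its log2 fold change was 0.65 with a 95% interval of 0.03 to 1.27, an unadjusted limma p of 0.0432 and an adjusted p of 0.347. On this scale the change of so low a gene is understated.

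By size of fold change PHT1;1 was 240th and PHT1;2 444th from the top of the 19863 tested genes in shoots. Both OE-SAUR41 libraries exceeded both Col-0 libraries for these 2 of 9 genes, a separation found for 7.26% of all tested genes. As the split of reads between PHT1;1 and PHT1;2 is uncertain, the 2 may not be separate cases. The fold change of PHT1;1 ranged from 0.56 without Col-0 shoot 2 to 1.27 with TMM scaling over 16 alternatives. Its adjusted p by limma ranged from 0.050 without Col-0 shoot 1 to 0.756, and it was called in none of them. The other of the pair ranged from 0.58 to 1.36 and was also called in none.

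The summed root markers moved with these 2 genes, since they were 826 and 828 FPKM in OE-SAUR41 shoots against 744 and 507 FPKM in Col-0 shoots, and their part in the result was not tested. Nearly all of that sum was PYK10, a beta-glucosidase abundant in roots, with 821 and 820.4 FPKM in OE-SAUR41 shoots against 741 and 499.9 FPKM in Col-0 shoots. The other 4 root markers did not separate the genotypes. CASP1, of the Casparian strip, had 4.35 and 7.64 FPKM in OE-SAUR41 shoots against 3.65 and 7.10 FPKM in Col-0 shoots, and MYB36, COBL9 and RHD6 were at 0.281 FPKM or less in all 4 shoot libraries.

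PHT1;4 had a negative value in shoots, with a mean of 11.1 ± 0.916 FPKM in OE-SAUR41 shoots, against 14.0 ± 1.35 in Col-0 shoots. Its log2 fold change was -0.31 ± 0.19 (SE), near the median of all genes, and both OE-SAUR41 libraries lay below both Col-0 libraries, as they did for 32.5% of all tested genes. With TMM scaling the value was 0.10 and with quantile normalization 0.05.

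Within the PHT1 family, the 2 most abundant transporters of shoots stood in opposite order in the genotypes. PHT1;1 made up 50.1% and 52.8% of the summed PHT1 level in OE-SAUR41 shoots, against 36.0% and 30.7% in Col-0 shoots. PHT1;4 made up 42.8% and 40.5% in OE-SAUR41 shoots, against 60.4% and 67.1% in Col-0 shoots. The shoot groups did not overlap in either share, and shares within a library do not depend on how libraries are scaled to each other. As these 2 genes make up most of the sum, their shares are not separate results. The uncertain split of reads between PHT1;1 and PHT1;2 also bears on the shares. In roots PHT1;1 held 82.6% and 83.7% in OE-SAUR41 and 84.5% and 84.6% in Col-0, and PHT1;4 held 10.7% and 9.34% in OE-SAUR41 and 7.58% and 7.66% in Col-0. The root groups did not overlap in either share as well, but with PHT1;1 lower and PHT1;4 higher in OE-SAUR41. How often shares of other genes separate in this way was not counted. With 2 libraries a group an exact permutation test of a share cannot go below 0.333, so none was run.

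**Figure D3:**
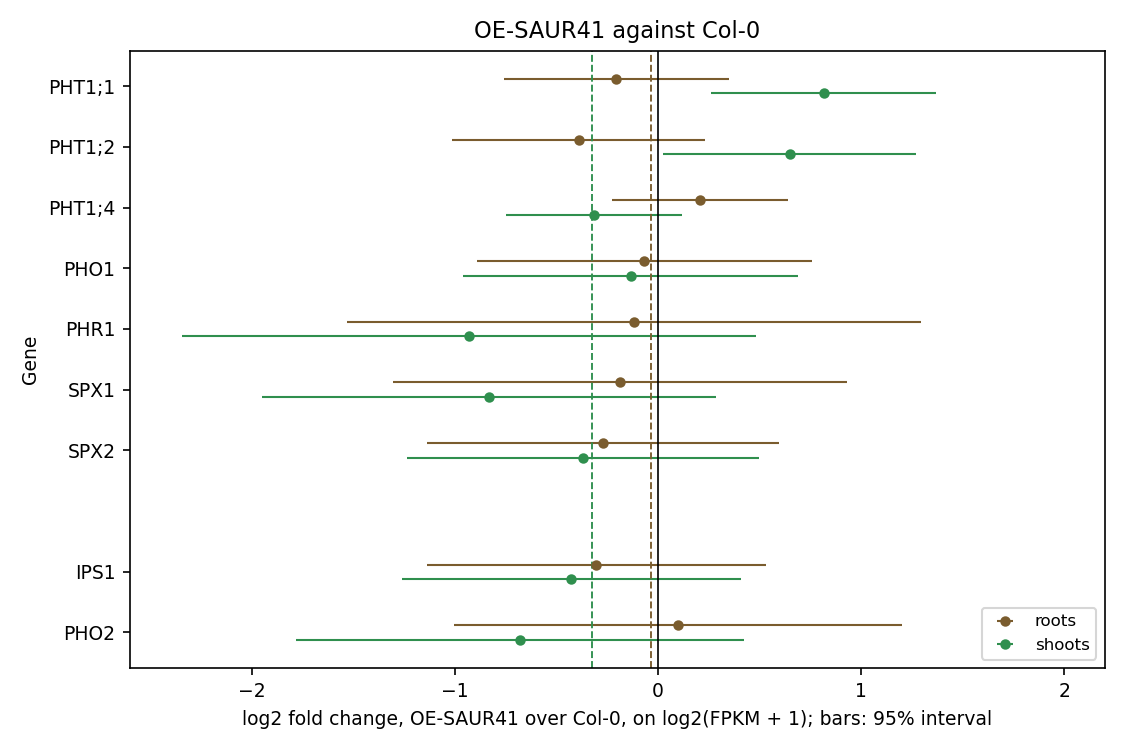
Log2 fold change, OE-SAUR41 over Col-0, on log2(FPKM + 1) with 95% intervals for the 9 tested genes in roots (brown) and shoots (green). Dashed lines mark the medians of all tested genes, -0.03 in roots and -0.32 in shoots. Only the intervals of the first and second gene in shoots do not cross 0, and neither passed the adjusted threshold.

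Negative values were also found in shoots for PHR1, PHO2, SPX1, PHO1 and SPX2, in all of which Col-0 shoot 1 was the highest shoot library. PHR1 averaged 2.50 ± 0.0572 FPKM in OE-SAUR41 shoots and 7.64 ± 7.76 FPKM in Col-0 shoots, and its Col-0 libraries differed 6.08-fold. On log2(FPKM + 1) that gap, 2.16, was larger than that of 97.1% of tested genes between the same libraries. The gap was 3.34-fold for PHO2, 3.20-fold for SPX1, 2.65-fold for PHO1 and 2.29-fold for SPX2, but between 1.15-fold and 1.49-fold for the 3 uptake transporters. The summed shoot markers went the opposite way, at 19380 FPKM in Col-0 shoot 1 and 37758 FPKM in Col-0 shoot 2. Their part in the gap was not tested. On the same log2 scale 4 of the 10 genes reached a 2-fold gap in Col-0 shoots, beside 29.1% of all tested genes. None did in the other 3 groups, beside 1.27% to 2.04%.

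The fold changes of these 5 genes turned on which Col-0 shoot library was kept. Without Col-0 shoot 2, PHR1 was lower in OE-SAUR41 shoots by a log2 fold change of -2.01 (adjusted p by limma 0.000624, between this and 0.815 over the alternatives), and SPX1 had -1.59, PHO2 -1.49, SPX2 -0.87 and PHO1 -0.73. All 5 of these were then called, but so were 49.8% of all tested genes. Without Col-0 shoot 1 the values were 0.15 for PHR1, -0.08 for SPX1, 0.13 for PHO2, 0.13 for SPX2 and 0.46 for PHO1, with none called, and 1.80% of all genes were called. PHT1;1 kept its sign either way, with 1.07 without Col-0 shoot 1, and 0.56 without the other, as did PHT1;2 with 0.70 and 0.60.

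**Figure D4:**
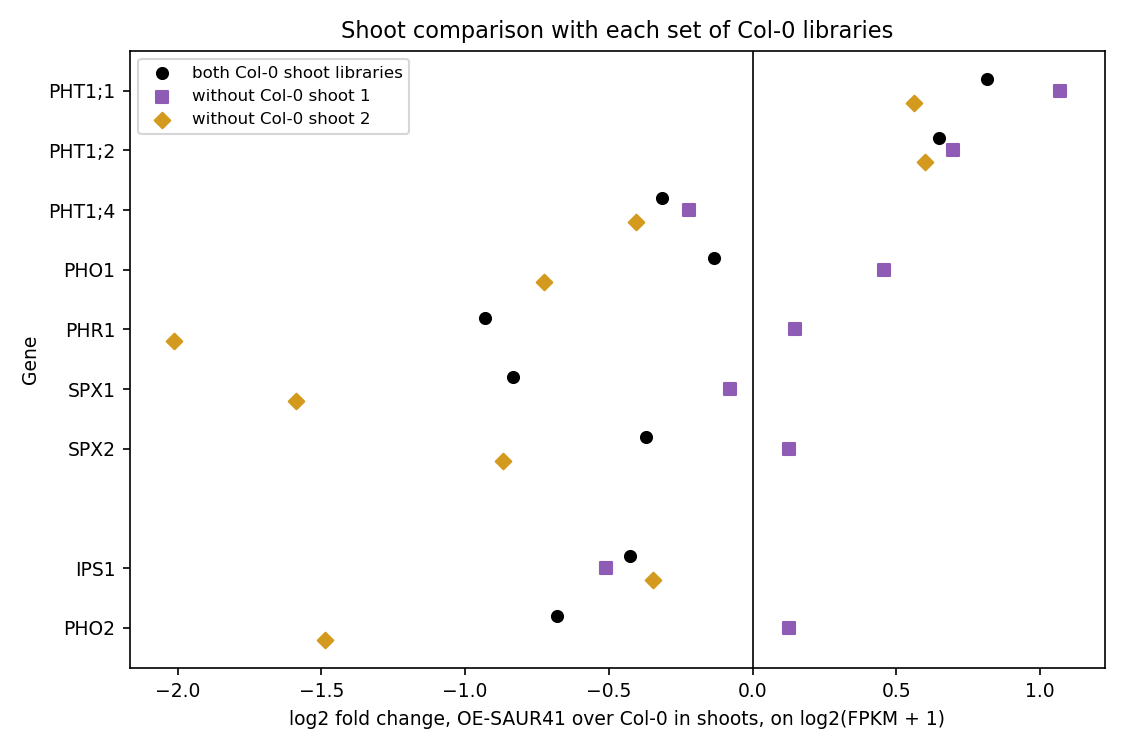
Log2 fold change, OE-SAUR41 over Col-0 in shoots, of the 9 tested genes with both Col-0 libraries (black), leaving out Col-0 shoot 1 (purple) or Col-0 shoot 2 (yellow). The 3 marks lie closest together for PHT1;2, IPS1 and PHT1;4 and farthest apart for PHR1, which has 0.15 when Col-0 shoot 1 is left out and -2.01 when Col-0 shoot 2 is.

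Whether the effect of the line differed between roots and shoots was tested by an interaction term, and limma called 0% of tested genes, none of the 9 among them, with 948 of all genes at an unadjusted p under 0.05. The root minus the shoot effect was -1.02 ± 0.34 (SE) for PHT1;1, with an unadjusted limma p of 0.0173 and an adjusted p of 0.807. For PHT1;2 it was -1.04 ± 0.38, with an unadjusted limma p of 0.0265 and an adjusted p of 0.807. PHT1;4 had the opposite sign, 0.52 ± 0.26. The median was 0.12 over the 9 genes, which was the value of IPS1, and 0.30 over all genes. Without Col-0 shoot 1 the values were -1.28, -1.09 and 0.43, and without Col-0 shoot 2 the interaction called 5 of the 9, PHT1;2 among them with -0.99, and 34.8% of all genes. With pseudocount 0.1 PHT1;2 had -1.76, and with TMM scaling PHT1;4 had 0.14.

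The rest of the pathway was described by 6 further lists with 49 entries, of which 41 genes were tested. None of the 41 was called between genotypes in roots or in shoots, or in the interaction, against the shares of all genes given above. The 41 had a median of 0.21 in the interaction, against 0.30 over all genes. Without Col-0 shoot 2 it was 0.52, against 0.54 over all genes, so it turned on that library. Their median log2 fold change was -0.04 in roots and -0.22 in shoots. In shoots the counts were 1 higher and 0 lower without Col-0 shoot 1, and 1 higher and 19 lower without Col-0 shoot 2, where 49.8% of all genes were called. The gene called higher was the ribonuclease gene RNS1 without Col-0 shoot 1 and the transcription factor gene WRKY45 without Col-0 shoot 2, both named after their values were seen. Between tissues 24 of the 41 were called higher and 5 lower in OE-SAUR41 roots than in OE-SAUR41 shoots, with a median of 1.17 against 1.22 over all genes, and 23 higher and 6 lower in Col-0 roots than in Col-0 shoots, with a median of 1.16 against 0.91 over all genes. Counts of that size are near the 66.0% and 52.7% of all genes called higher and the 11.8% and 13.2% called lower. Without Col-0 shoot 1 the median in Col-0 was 1.24 over the 41 genes and 1.20 over all genes. With TMM scaling the counts were 16 higher and 13 lower in OE-SAUR41 and 15 higher and 11 lower in Col-0, where 53.9% and 42.1% of all genes were called.

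Of 16 tested regulators of phosphate signalling, 14 were called higher in roots in OE-SAUR41 and 14 in Col-0, against 66.0% and 52.7% of all genes, and none lower. Their medians were 2.37 and 2.04, against 1.22 and 0.91 over all genes. With TMM scaling 11 were called higher and 1 lower in OE-SAUR41, and 11 higher and 0 lower in Col-0. Of all genes, 53.9% in OE-SAUR41 and 42.1% in Col-0 were then called in either direction, with the counts each way given above. ALMT1, a malate channel of the low-phosphate root response, had 34.8 and 32.1 FPKM in OE-SAUR41 roots against 0.124 and 0.131 FPKM in OE-SAUR41 shoots. HRS1, a transcription factor of root growth under low phosphate, had 33.5 and 25.3 FPKM in OE-SAUR41 roots against 0.317 and 0.624 FPKM in OE-SAUR41 shoots. WRKY6, a repressor of PHO1, had a log2 fold change of 3.44 in OE-SAUR41 and 2.94 in Col-0. WRKY75, an activator of starvation genes, had 12.8 and 10.2 FPKM in OE-SAUR41 roots and was not listed in OE-SAUR41 shoots. All 4 were called higher in roots in both genotypes, also with TMM scaling. At4, a relative of IPS1 that can also capture miR399, was well detected where IPS1 was not, with 40.3 and 65.0 FPKM in OE-SAUR41 roots against 14.2 and 9.16 FPKM in OE-SAUR41 shoots, and 47.3 and 30.2 FPKM in Col-0 roots against 12.3 and 17.0 FPKM in Col-0 shoots. It was called higher in roots in both genotypes, but not with TMM scaling.

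Transporters of organelles were split. PHT2;1 and PHT4;1, transporters of the chloroplast, were called lower in roots, with log2 fold changes of -3.81 and -3.36 in OE-SAUR41 and -3.41 and -3.57 in Col-0. PHT3;2, a mitochondrial carrier, and PHT4;2, a transporter of root plastids, were called higher, with 2.05 and 1.97 in OE-SAUR41 and 2.68 and 1.45 in Col-0. These 4 calls also held with TMM scaling. In all, 5 of 10 were called higher and 4 lower in OE-SAUR41, and 3 and 3 in Col-0, beside 66.0% higher and 11.8% lower of all genes in OE-SAUR41 and 52.7% and 13.2% in Col-0. With TMM scaling they were 2 and 5 in each genotype. Among the other PHT1 transporters only PHT1;9 was tested, at 1.00 and 1.25 FPKM in OE-SAUR41 roots and 1.12 and 1.37 FPKM in Col-0 roots, against no listed value in the shoot libraries.

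Among genes that save or recycle phosphate, 2 of 6 tested phosphatases and nucleases were called higher in roots in OE-SAUR41 and 3 in Col-0, beside 66.0% and 52.7% of all genes, and none lower. With TMM scaling 1 was called higher and 3 lower in OE-SAUR41, and 0 higher and 2 lower in Col-0. The share of all genes called in either direction was then 53.9% in OE-SAUR41 and 42.1% in Col-0. The secreted and vacuolar purple acid phosphatases PAP12 and PAP26 had log2 fold changes of 1.94 and 1.41 in OE-SAUR41 and 1.24 and 1.17 in Col-0, while the phosphatase PS2 had 1.27 in OE-SAUR41, not called, and 1.49 in Col-0. With TMM scaling PAP12 kept its call in OE-SAUR41 alone, PAP26 and PS2 in neither, and PAP26 turned to -0.04 in OE-SAUR41. Of 7 tested genes of lipid remodelling, 1 was called higher and 1 lower in OE-SAUR41 roots, and 1 and 3 in Col-0 roots. Of all genes 66.0% were called higher and 11.8% lower in OE-SAUR41, and 52.7% and 13.2% in Col-0. The phospholipase NPC4 was called higher in roots, with 2.26 in OE-SAUR41 and 2.33 in Col-0. The sulfolipid synthesis gene SQD1 was called lower in roots, with -1.23 in OE-SAUR41 and -1.90 in Col-0, and the galactolipid synthases MGD2 and MGD3 were called lower in Col-0 alone, with -0.28 and 0.21 in OE-SAUR41 and -1.09 and -0.90 in Col-0. Without Col-0 shoot 1 MGD3 had -0.46 in Col-0 and was not called, and with TMM scaling it had -0.48 in OE-SAUR41, where MGD2, with -1.19, was then called as well. The interaction, which tests that difference between the genotypes, called neither.

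**Figure D5:**
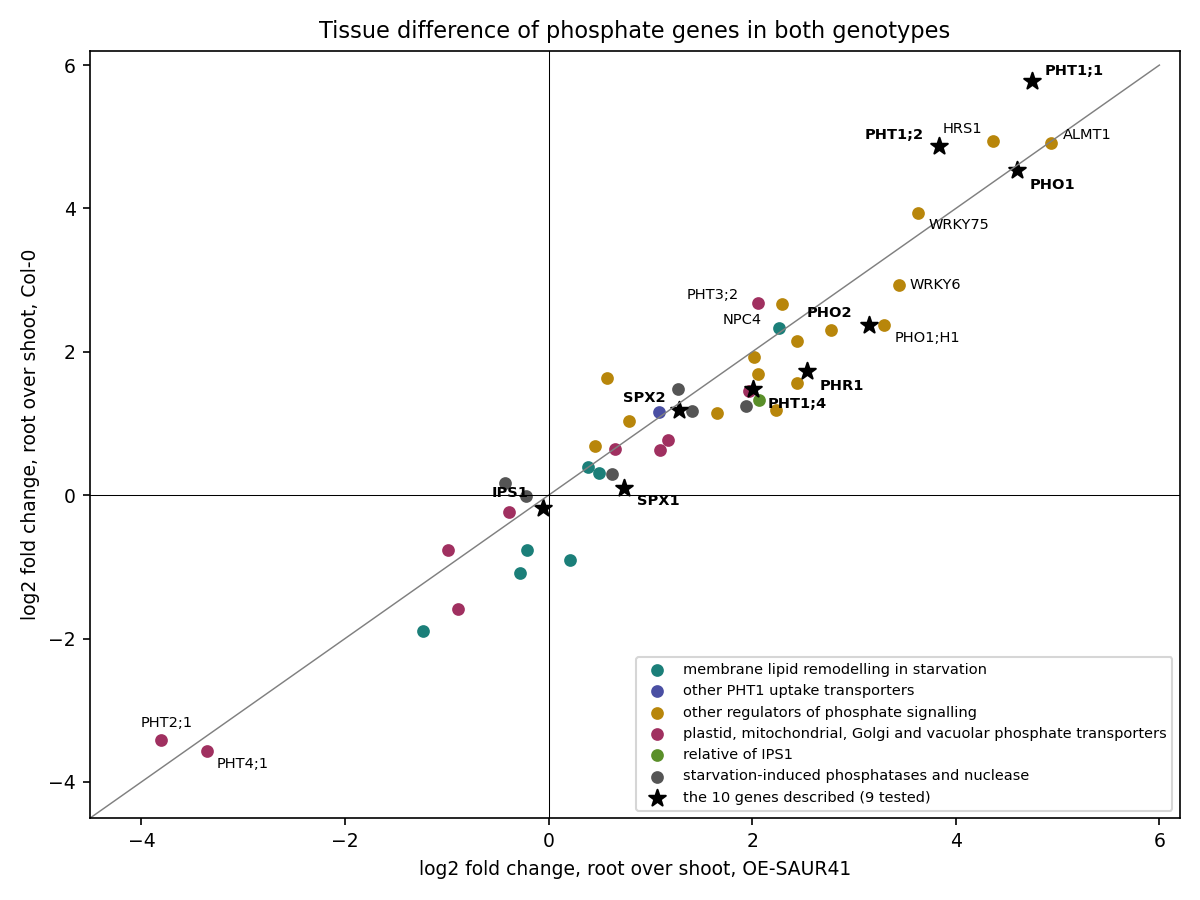
Log2 fold change, root over shoot, on log2(FPKM + 1) in OE-SAUR41 (x axis) against Col-0 (y axis) for the 9 tested genes (stars) and the 41 tested genes of the 6 further lists (dots, coloured by list), with the line of equal values. The starred transporters PHT1;1 and PHO1 lie at the upper right with ALMT1 and HRS1, and the chloroplast transporters at the lower left.

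As a description of the profiles, the gene most like PHT1;1 over the 8 libraries was the invertase gene BFRUCT3, with a Pearson r of 0.999 on log2(FPKM + 1). The level of BFRUCT3 was 167 and 181 FPKM in OE-SAUR41 roots against 22.9 and 25.5 FPKM in OE-SAUR41 shoots, and 185 and 175 FPKM in Col-0 roots against 17.4 and 14.0 FPKM in Col-0 shoots. For PHO2 it was UBC26, also with r = 0.999, and for PHO1 the named gene most like it was DIR16, with r = 1.00. IPS1 had no near match, its best r being 0.872. Each such r rests mainly on the gap between roots and shoots that the libraries share.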

How the data were processed

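Illumina HiSeq reads came from roots and shoots of 5-day-old seedlings, per the labels' protocols. The authors deposited FPKM, per the file headers, in 1 file a library, and the submitters' processing notes name TAIR10. The sources used here do not give aligner, quantifier or strand setting. Genes a file did not list were taken as 0, and 3 genes were left out as failed estimates: unlisted in 1 library of a group and over 100 FPKM in the other. Absolute depth is unknown, so no counting interval is given. Steps in low values gave depths of 0.637 to 1.19 relative to Col-0 root 1.

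One model of 4 group means was fitted to all 8 libraries (limma 3.58.1, R 4.3.3, eBayes with trend) on log2(FPKM + 1), over genes that reached 1 FPKM in 2 or more libraries, with Benjamini-Hochberg adjustment over all 19863 genes. The code was tested on simulated data. Fold changes are on that scale, which understates low genes. Alternatives were quantile normalization, TMM scaling without count weights, pseudocount 0.1, a filter at 5 FPKM or none, a gene span correction (lowess), a fit of only the compared libraries, a replicate block, and each library left out in turn. A library left alone in its group was taken to vary as the other groups do. A crossed block, and counts of the further lists under other scalings or without either Col-0 shoot library, were added after seeing the data.

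The 10 genes and the lists were chosen with earlier results of these data known. All 10 are named, with up to 4 called genes a list and the closest profiles. List entries PHT1;3, PHT1;6, PHT1;7, MYB62 and NPC5 had no value in the files used here, so they count among the 49 entries but were not tested, and 5 entries without a symbol in the reference table were left out. Tables were made with pandas 2.3.3 and numpy 2.4.6 in Python 3.11.15, and figures with matplotlib 3.10.9.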

Additional observations from a re-analysis of the deposited data

Results flagged for a closer look

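PHT1;2 and PHT1;4 had values of opposite sign in the 2 tissues on the FPKM as deposited, and their libraries did not overlap between genotypes. For PHT1;2 both OE-SAUR41 libraries lay below both Col-0 libraries in roots and above both in shoots, as was found for 19.6% of all tested genes in roots and 7.26% in shoots, with a root effect minus shoot effect of -1.04 on the log2 scale. For PHT1;4 both OE-SAUR41 libraries lay above both Col-0 libraries in roots and below both in shoots, as was found for 11.5% and 32.5%, with 0.52. These shares are for each tissue alone, and how many genes separate in opposite directions in both was not counted. With TMM scaling, quantile normalization or the gene span correction the shoot value of PHT1;4 was positive, so the signs were no longer opposite, and with TMM scaling its root minus shoot effect was 0.14. Neither difference passed the interaction test of limma after adjustment (adjusted p = 0.807 for both). The value for PHT1;2 ranged from -1.29 to -0.79 as single libraries were left out and was -1.76 with pseudocount 0.1. Without Col-0 shoot 2 it was called (adjusted p by limma 0.0393, up to 0.996 over the alternatives), as were 34.8% of all tested genes.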

How the results depend on the processing

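With 2 libraries a group and unknown absolute depth, no order of the groups can be read for low genes such as IPS1 and SPX3. Of 715 fold changes of the genes under alternatives, 633 kept direction and call, 14 gained a call, 22 lost one and 46 changed sign, and the cause was not tested.

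Between genotypes, the genes called in roots (1) became 3 with pseudocount 0.1, 9 with no filter and 2 with the gene span correction, and 1 to 9 with a library left out (9 when it was Col-0 shoot 1, 8 when Col-0 shoot 2). In shoots the 4 became 30 with pseudocount 0.1, 8 with no filter, 19 with the filter at 5 FPKM, 24 with quantile normalization, 104 with the gene span correction and 0 with the shoot libraries alone, and 1 to 9887 with a library left out (357 when it was Col-0 shoot 1, 9887 when Col-0 shoot 2). The interaction called 2 with no filter and 0 to 6904 with a library left out (6904 without Col-0 shoot 2). Of the 9 genes, 0 to 5 were called with a library left out in shoots and 0 to 5 in the interaction, 5 in both without Col-0 shoot 2. Root against shoot in Col-0 called 8369 genes with TMM scaling, 4 of the 9 among them, 8404 with its libraries alone and 7875 to 16381 with a library left out, against 13094.

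Replicate numbers were not shown to pair the libraries, since the deviations of same-numbered libraries correlated from -0.218 to 0.459 between groups. With the replicate block 1 gene was called in shoots. The crossed block called 62.2% of genes between Col-0 tissues, 7 of the 9 among them.

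Signs of uncalled values turned as follows. Shoot fold changes with quantile normalization, TMM scaling and the gene span correction were 0.053, 0.10 and 0.078 for PHT1;4 and 0.26, 0.28 and 0.39 for PHO1, and SPX2 had 0.069 and 0.0089 with the first and second. In the interaction, PHO1 had -0.30, -0.31 and -0.47, SPX2 -0.32, -0.24 and -0.11, and IPS1 -0.046 with quantile normalization. Root over shoot, SPX1 had -0.51 (quantile) and -0.52 (TMM) in OE-SAUR41 and -0.78 and -0.82 in Col-0, and IPS1 0.086 with pseudocount 0.1 in OE-SAUR41.

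With a library left out, root fold changes ran from -0.79 to 0.19 for IPS1, -0.19 to 0.056 for PHO1, -0.14 to 0.34 for PHO2, -0.31 to 0.078 for PHR1, -0.43 to 0.021 for PHT1;1 and -0.41 to 0.033 for SPX1. In shoots they ran from -0.73 to 0.46 for PHO1, -1.49 to 0.13 for PHO2, -2.01 to 0.15 for PHR1 and -0.87 to 0.13 for SPX2. In the interaction they ran from -0.37 to 0.61 for IPS1, -0.52 to 0.66 for PHO1, -0.028 to 1.58 for PHO2, -0.27 to 1.89 for PHR1, -0.11 to 1.40 for SPX1 and -0.40 to 0.59 for SPX2. Root over shoot they ran from -0.43 to 0.32 for IPS1 in OE-SAUR41, and from -0.66 to 0.32 for IPS1 and -0.65 to 0.85 for SPX1 in Col-0.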
